A study of Torulaspora delbrueckii with 9 samples.

Results

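Peaks of Orc1, Orc2 and Orc4, subunits of the origin recognition complex, whose summit lay 20 kb or more and less than 100 kb from the nearer chromosome end are described here. They were chosen by position alone, as the left end is position 0 and the right end is the last base of any peak on that sequence. Of 1900 peaks in the 6 lists, 271 (14.3%) lay in this band, which holds 1280 of 9221 kb (13.9%) at 16 ends of 8 chromosomes. The lists came from chromatin immunoprecipitation and sequencing (ChIP-seq) in the budding yeast Torulaspora delbrueckii. There were 2 libraries with MYC-tagged Orc1 (strains LRY3204 and LRY3211), 2 with V5-tagged Orc2 (LRY3142 and LRY3143) and 2 with V5-tagged Orc4 (LRY3138 and LRY3139). The references were 2 genomic input libraries and 1 mock immunoprecipitate of the untagged strain JRY10156. All cultures were grown in YPD medium at 30 degrees, and formaldehyde at 1% was applied for 1 hour to cross-link them.

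The origin recognition complex (ORC) is a 6-subunit assembly that binds DNA at replication origins and loads the replicative helicase there. In yeasts the DNA near chromosome ends is partly packed into silent chromatin, and Orc1 shares its ancestry with Sir3, which in Saccharomyces cerevisiae binds nucleosomes of silenced DNA. Farther from the ends lies gene-bearing DNA with its own origins.

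Fold enrichment, the authors' value for each peak, is the ratio of immunoprecipitate to control at the summit. By the peak names the control was an input for Orc1 and the mock for Orc2 and Orc4. Subunit, tag, antibody and kind of control therefore cannot be told apart between Orc1 and the rest, and levels of fold were compared only within a list. The names of the Orc1 peaks also carry the words SIR in library 1 and Kos3V5 in library 2, which the labels leave unexplained. The design text speaks of technical replicates although strain numbers differ, so p-values measure the spread between these libraries, which may be technical. Peak names of all lists hold the word subsample and a strain number other than those given above, also unexplained by the labels. The lists give no read counts, and the depth of each library is unknown. Lists held 248 to 408 peaks.

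The band held a similar share of each list, and Orc1 covered more of it than Orc2 or Orc4. The Orc1 lists had 41 and 43 members, the Orc2 lists 50 and 46, and the Orc4 lists 53 and 38. These were 13.0% to 15.6% of a list. The number did not separate the subunits, with a mean of 42 for Orc1 and 46.8 for Orc2 and Orc4 (exact two-sided permutation over 15 arrangements of the 6 libraries, p = 0.4). Summed peak width was 52.8 and 77.9 kb in the Orc1 lists, against 31.7 and 29.5 kb in the Orc2 lists and 42.9 and 27.4 kb in the Orc4 lists. Both Orc1 lists stood above the other 4, by 32.5 kb on average (exact permutation p = 0.0667, the smallest that 15 arrangements can give, and 0.1 after adjustment over the 9 comparisons of Orc1 with the others). The difference was 19.95 kb without Orc1 library 2 and 16.9 kb without the left end of chromosome 5, which alone held 54 of the 271 members.

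Orc1 peaks were also wider one by one. The median width of members was 963 and 1050 bp in the Orc1 lists, against 596.5 and 693 bp in the Orc2 lists and 667 and 770.5 bp in the Orc4 lists. The groups did not overlap, and the log2 difference of 0.57 is a ratio of 1.48 (exact permutation p = 0.0667). The same order held 100 kb or more from an end, where medians were 874 and 921.5 bp for Orc1 and 577.5 to 788.5 bp for the others. Band over interior, the change in median width was a log2 of 0.14 and 0.19 in the Orc1 lists and from -0.07 to 0.26 in the other lists, a difference of 0.08 (exact permutation p = 0.733). This difference was 0.37 with peaks of -log10 q of 10 or more and 0.30 with equal numbers of peaks per list (exact permutation p = 0.0667 in each), and 0.02 to 0.14 with 1 library left out. The widest peaks also differed. In the band 4 and 3 Orc1 peaks were wider than 2000 bp, whereas 0 and 0 Orc1 peaks were that wide in the interior, where the widest were 1661 and 1910 bp. The terminal 20 kb, a shorter stretch, held more such Orc1 peaks, 9 and 20. Of Orc2 and Orc4 peaks in the band, 1 was wider than 2000 bp, in Orc4 library 1, and in the interior Orc2 library 1 had 2 and Orc4 library 1 had 3.

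Peaks were fewest from 80 to 100 kb in all 6 lists. From 20 to 40 kb the Orc1 lists held 13 and 13 peaks and the others 9 to 14. The step from 40 to 60 kb was the fullest, with 13 and 18 Orc1 peaks and 16 to 23 Orc2 or Orc4 peaks, although in Orc1 library 1 it was level with the first step. From 60 to 80 kb there were 11 and 8 Orc1 peaks and 8 to 13 others, and from 80 to 100 kb only 4 and 4 Orc1 peaks and 5 to 6 others. The last step thus held 1.25 to 1.88 peaks per 100 kb, against 2.36 to 4.26 per 100 kb in the interior.

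**Figure D1:**
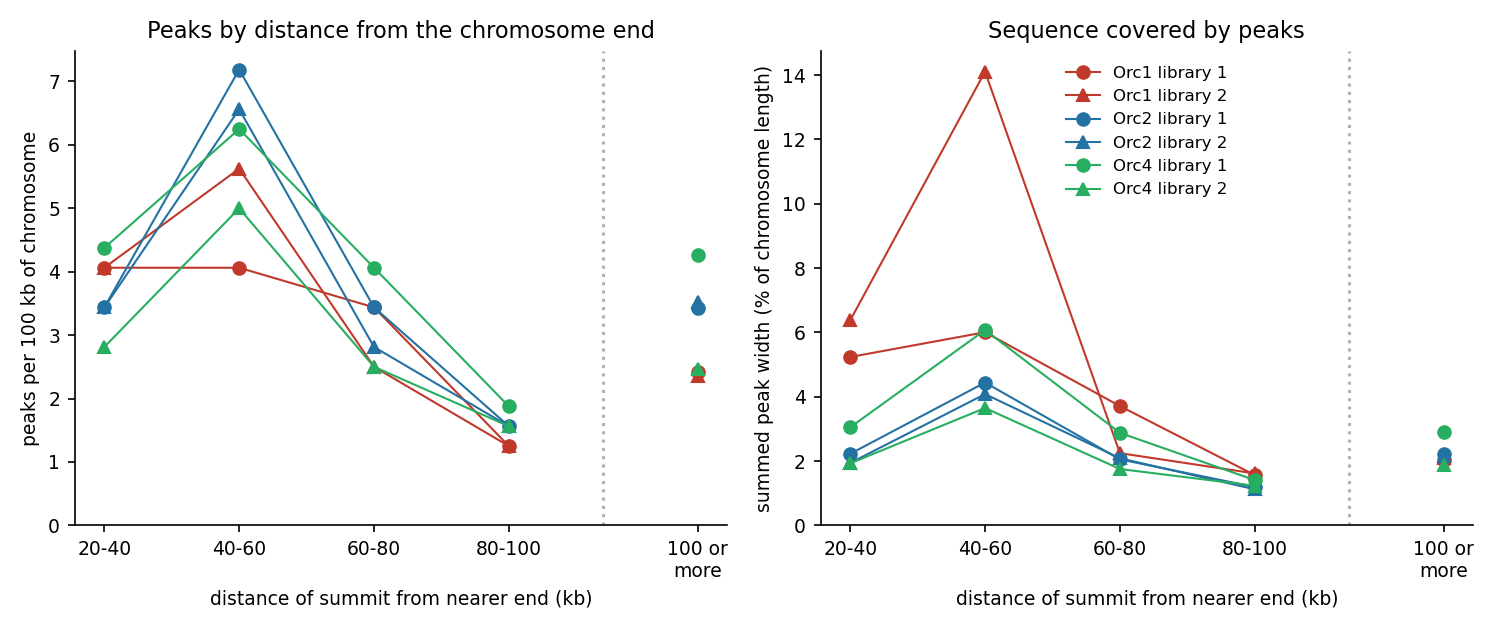
Peaks per 100 kb of chromosome (left) and summed peak width as a percent of chromosome length (right) for each of the 6 libraries, by 20-kb step of distance from the nearer end, with the interior to the right of the dotted line. All lists have their fewest peaks 80 to 100 kb from an end, and the Orc1 lists lie above the others in covered length from 20 to 40 kb, with Orc1 library 2 reaching 14.1% from 40 to 60 kb.

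The Orc1 surplus in covered length was larger from 20 to 40 kb than from 80 to 100 kb in both libraries, and did not decline step by step in either. From 20 to 40 kb Orc1 peaks covered 16.7 and 20.4 kb, against 6.17 to 9.75 kb in the other lists, and the mean was 2.54 times theirs. The ratio of means was 2.205 from 40 to 60 kb, 1.36 from 60 to 80 kb and 1.28 from 80 to 100 kb, where Orc1 covered 4.997 and 5.16 kb and the others 3.58 to 4.50 kb. It was 6.2 in the terminal 20 kb and 0.903 in the interior. Orc1 library 2 covered 45.1 kb from 40 to 60 kb and library 1 covered 19.2 kb, so the second step rests on library 2, whose peak of 31.55 kb is counted there whole. From the first step to the last, library 1 covered 2.29, 1.32, 1.69 and 1.26 times the mean of the others, and library 2 covered 2.79, 3.09, 1.02 and 1.30 times. Without the left end of chromosome 5 the ratios from the first step to the last were 3.28, 1.26, 1.22 and 1.28.

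Covered length from 20 to 60 kb was compared with that from 60 to 100 kb within each list. The log2 ratio was 1.09 and 2.41 in the Orc1 lists, against 1.04 and 0.91 in the Orc2 lists and 1.09 and 0.90 in the Orc4 lists. The mean difference of 0.77 gave an exact permutation p of 0.0667, but Orc1 library 1 lay level with Orc4 library 1, and without Orc1 library 2 the difference was 0.11. With peak centres in place of summits it was -0.54, since the widest peak of library 2 then counted beyond 60 kb. A steeper decline of Orc1 with distance inside the band therefore did not exceed the difference between the 2 Orc1 libraries.

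Set against the interior, the density of Orc1 coverage in the band was higher in both libraries. Orc1 peaks covered 4.13% and 6.08% of the band, against 2.04% and 2.1% of the interior. Orc2 peaks covered 2.48% and 2.31% of the band, against 2.22% and 2.15% of the interior, and Orc4 peaks 3.35% and 2.14%, against 2.91% and 1.88%. The log2 ratio of band to interior was 1.02 and 1.53 for Orc1, against 0.10 to 0.20 in the other lists, which makes the Orc1 change 2.17 times theirs (exact permutation p = 0.0667, adjusted p = 0.1). It was 0.90 on the log2 scale without the left end of chromosome 5, against 1.12 with it.

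Differences in the number of peaks and in their fold enrichment between band and interior did not pass 0.05, and that in number depended on the setting. Band over interior, peak density was higher in 5 of 6 libraries, with a mean log2 ratio of 0.23 (exact two-sided sign-flip permutation over 6 libraries, p = 0.0938, adjusted p = 0.188 over 3 such comparisons). Both Orc1 lists, with log2 ratios of 0.41 and 0.51, stood above every Orc2 and Orc4 list, which ranged from -0.04 to 0.27. Whether Orc1 differed from the others in this ratio was not tested. Without the left end of chromosome 5 the mean over the 6 libraries was -0.0026. It was 0.15 with peaks of -log10 q of 10 or more, 0.21 with equal numbers of peaks and 0.48 for a band of 20 to 80 kb, each with an exact sign-flip permutation p of 0.0312, not adjusted. Median fold enrichment in the band was 7.01 and 6.67 in the Orc1 lists, against 6.64 and 7.55 in their interior. For Orc2 it was 7.59 and 9.59, against 7.57 and 6.74, and for Orc4 5.33 and 10.7, against 3.75 and 11.01. The mean log2 ratio was 0.15, positive in 4 of 6 libraries (exact sign-flip permutation p = 0.344), and it did not separate Orc1 from the others (exact permutation p = 0.267).

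Within the band, the step farthest from the end held no weak Orc1 peak, whereas Orc2 and Orc4 had weak peaks there. The median fold of members in the last step, 80 to 100 kb, was above that of each other step in all 6 lists, with Orc1 at 8.81 and 11.1, Orc2 at 21.7 and 21.8, and Orc4 at 18.5 and 15.2. Only 4 to 6 peaks per list lay there. At regions found in all 6 lists the order did not hold in 2 lists, where the median was 8.81 at 80 to 100 kb and 9.41 at 40 to 60 kb for Orc1 library 1, and 16.6 and 17.7 for Orc4 library 2. The lowest fold of a member at 80 to 100 kb was 7.17 and 6.67 in the Orc1 lists. It was 4.19 and 3.28 in the Orc2 lists and 2.29 and 2.28 in the Orc4 lists. From 20 to 40 kb Orc1 peaks went down to 1.70 and 1.76, and the other lists had lowest folds of 1.32 to 1.67. Across members, Spearman's rho of width with distance was -0.08 and 0.02 for Orc1 (41 and 43 peaks) and 0.04 to 0.14 for the others (38 to 53 peaks). For fold it was 0.14 and 0.31 for Orc1, against 0.03 to 0.18 in the other lists. Width and fold of a peak went together over the members of each list, with rho of 0.71 to 0.83, and neighbouring peaks of 1 end and 1 library are not independent.

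**Figure D2:**
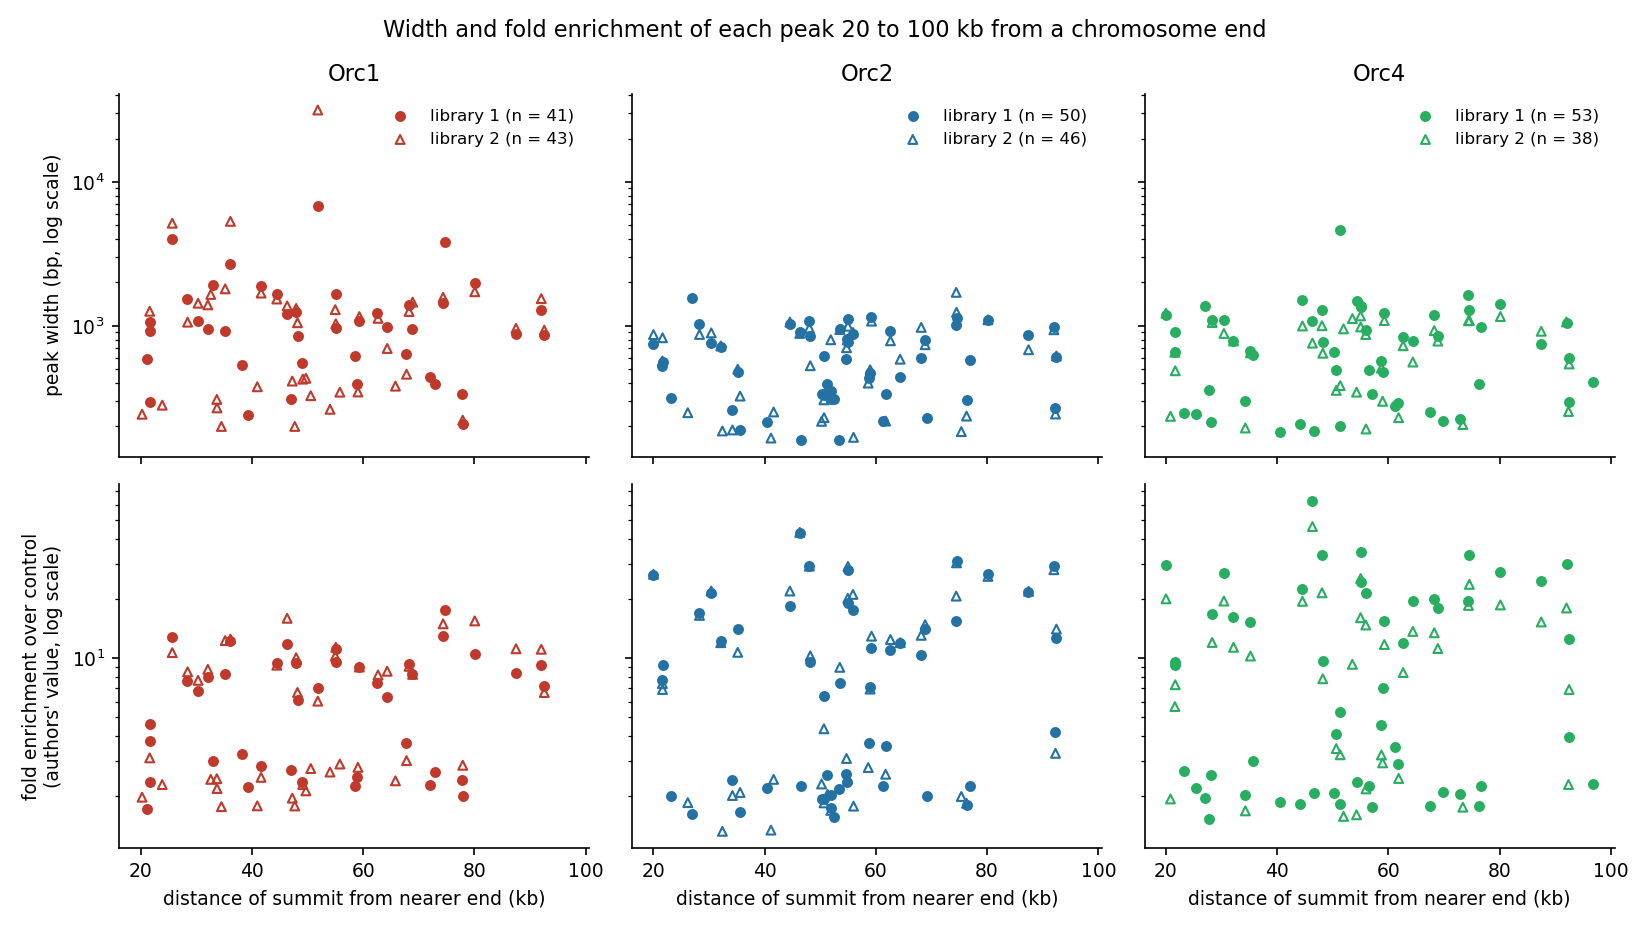
Width (top, log scale) and fold enrichment (bottom, log scale) of each of the 271 members against the distance of its summit from the nearer end, with filled circles for library 1 and open triangles for library 2. Orc1 library 2 has 1 peak of 31550 bp, and no peak in the last step falls below 6.67 fold in the Orc1 panels.

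Most of the summed Orc1 surplus lay at few ends. At 10 of 16 ends both Orc1 lists covered more of the band than each of the other 4 lists, at 1 end both covered less, and at 5 ends the lists overlapped. The same count was not made over stretches of the interior. Median Orc1 widths were larger there too, while Orc1 covered 0.903 times the mean of the others. Chosen from these values, the 4 ends with the largest surplus were the left ends of chromosomes 5 and 7 and the right ends of chromosomes 4 and 8, and they held 29.3 of the 32.5 kb (90.1%). At the left end of chromosome 5 Orc1 covered 13.4 and 34.0 kb, against 6.35 to 10.7 kb in the others. At the left end of chromosome 7 it covered 5.67 and 8.53 kb, against 1.27 to 2.61 kb. The right end of chromosome 4 had 6.98 and 7.34 kb of Orc1 and 1.37 to 3.96 kb of the others, and the right end of chromosome 8 had 5.24 and 4.97 kb and 1.04 to 1.25 kb. Over the remaining 12 ends Orc1 covered a mean of 22.3 kb and the Orc2 and Orc4 lists 19.1 kb, a ratio of 1.17. The median of their 12 single ratios was 1.37, and the lowest, 0.247, was that of the left end of chromosome 6. A site on the 20-kb limit, described below, counted there for Orc2 and Orc4 and not for Orc1.

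**Figure D3:**
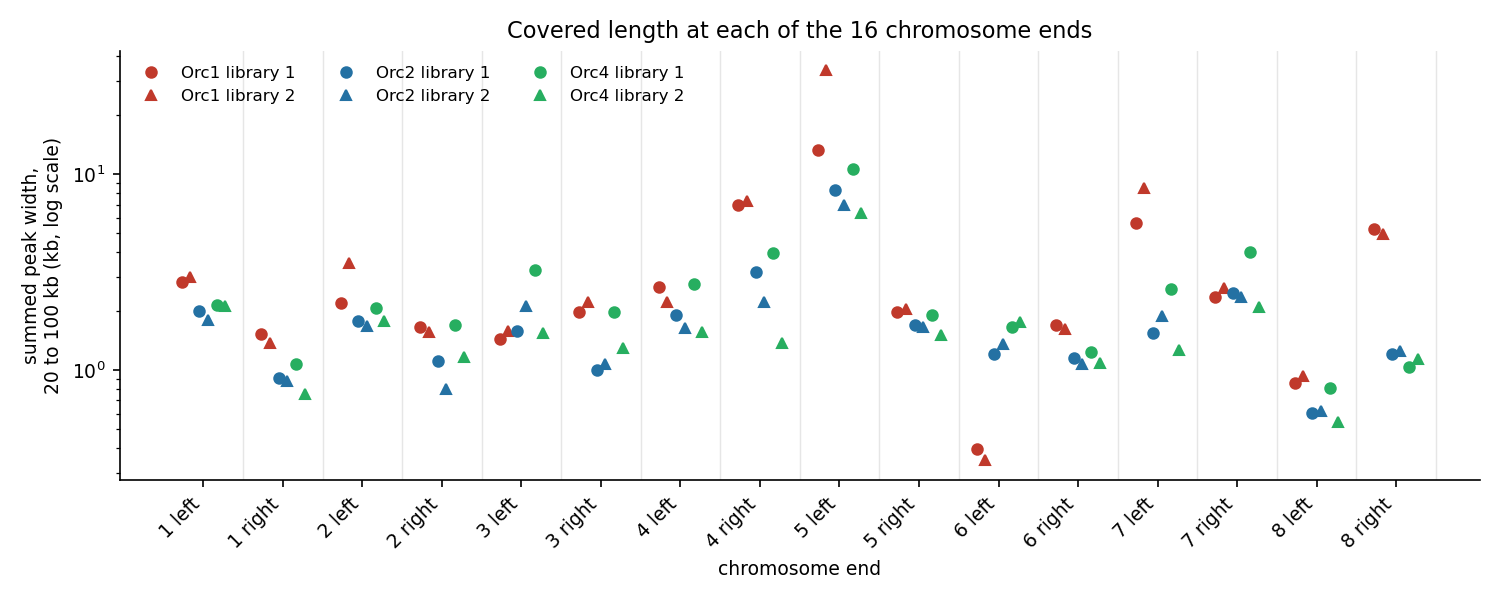
Summed width of the peaks 20 to 100 kb from each of the 16 chromosome ends (log scale), 1 point per library. The Orc1 points stand above the rest at the left ends of chromosomes 5 and 7 and the right ends of chromosomes 4 and 8, and below them at the left end of chromosome 6.

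The end with less Orc1 than Orc2 or Orc4 had a strong site on the 20-kb limit itself. At the left end of chromosome 6 a peak of all 6 lists (positions 19077 to 21111, between TDEL0F00160 and TDEL0F00170) straddled 20 kb. The Orc1 summits lay 19.95 and 19.91 kb from the end, just outside, and the Orc2 and Orc4 summits just inside. Orc1 fold there was 11.4 and 11.98 and that of the others 19.9 to 29.5. Orc1 covered 1750 and 2035 bp at this site, more than each of the others (744 to 1457 bp). By the place of its summits this Orc1 width was not counted in the band, and that of the others was. A second such region, near the right end of chromosome 3, had 5 members, 21.6 to 21.7 kb from the end. The annotated mating-type genes HMLALPHA1 and HMLALPHA2 of this region lie closer to the end, within 20 kb. A peak of Orc1 library 2, 13824 bp wide, covered the whole region. The strongest Orc1 summits of the region lay outside the band. Within the band were 1 peak of Orc1 library 1 (3.78 fold) and 1 peak of each Orc2 and Orc4 list (5.66 to 9.54 fold). Together the 2 regions held 10 of the 271 members. Counting by region in place of peak gave an Orc1 difference in covered length of 33.6 kb. At the other edge, the outermost member was a peak of Orc4 library 1 at 96.8 kb with fold 2.29, and the first peaks beyond were at 100.6 kb on chromosome 3 with fold 10.3 to 20.5.

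Overlapping peaks of the 6 lists were merged, and 68 of 542 merged regions had their mean summit in the band, with 261 of the members. Of these 68, 23 had a peak in all 6 lists (33.8%, against 36.5% of all 542 regions). A further 4 of the 68 were in both Orc1 lists alone, against 17 of all 542 regions (3.14%). In all Orc2 and Orc4 lists without Orc1 there were 3 of the 68, against 16 of all 542 (2.95%). Another 25 were in 1 list alone (36.8%, against 37.3% overall), of which 12 were from Orc4 library 1 and 10 from Orc1 library 2, none above 2.55 fold. From the nearest step to the farthest, 5, 8, 6 and 4 regions were in all 6 lists, and 8, 10, 6 and 1 were in 1 list.

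Each of the 16 ends had 1 or 2 regions found in all 6 lists between 20 and 100 kb. There was 1 such region at 9 ends and there were 2 at 7 ends. The mean of 1.44 per end compares with 1.66 in 91 windows of the same 80-kb length in the interior, of which 88 (96.7%) held at least 1. The first region inward of 20 kb lay 21.7 kb from the end on the left of chromosome 7 and as far in as 92.5 kb on the left of chromosome 8, with a median of 51.6 kb over the 16 ends. Such regions amounted to 1.80 per 100 kb in the band and 2.07 in the interior.

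The strongest of these regions were spread over 7 chromosomes, and 8 of the 10 had their mean summit between genes. Gene roles given below are those known from Saccharomyces cerevisiae. The highest minimum fold over the 6 lists was 12.9, on chromosome 3 at 73227 to 75380, 74.4 kb from the left end, between the actin gene ACT1 and SND2, which acts in protein targeting to the endoplasmic reticulum. Orc1 fold was 12.9 and 14.9 there, against 15.4 and 20.6 for Orc2 and 19.3 and 18.5 for Orc4. The highest single value in the band came from chromosome 1 at 1370812 to 1372420, 46.3 kb from the right end, between the mismatch repair gene MSH3 and CDC39, a subunit gene of the CCR4-NOT complex. Orc1 gave 11.8 and 15.9 at this site, Orc2 42.9 and 43.3, and Orc4 62.6 and 46.4.

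Other strong sites were spread over the band. On chromosome 7, 55.0 kb from the right end, a region at 890336 to 891903 beside BIO5, which encodes a biotin precursor transporter, had Orc1 at 11.1 and 11.3 and the other lists at 25.3 to 34.6. On chromosome 5, 80.1 kb from the right end, 1005795 to 1007815 over TDEL0E05490 and TDEL0E05500 had Orc1 at 10.4 and 15.4 and the other lists at 18.6 to 27.2. It was the region in all 6 lists nearest to the end in the last step. On chromosome 2, regions lay at 1298839 to 1300583 beside CAB3, a coenzyme A synthesis gene, and at 47347 to 48813 beside PTH1, which encodes a peptidyl-tRNA hydrolase. Their minimum folds were 9.49 and 9.41. The remaining regions of the 10 strongest were at 91117 to 92662 on chromosome 1 between GAS4 and SKP2, at 43714 to 45387 on chromosome 4 beside the oxoprolinase gene OXP1, at 877391 to 878801 on chromosome 7 in the neighbourhood of the alcohol dehydrogenase gene ADH4, and at 1010924 to 1012222 on chromosome 6 beside MSS4, a phosphoinositide kinase gene. Minimum folds of these 4 were 9.25, 9.18, 9.06 and 8.98.

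Weak sites with all 3 subunits were few. On the left of chromosome 7, 20955 to 22216 at TDEL0G00140, 21.7 kb from the end, had Orc1 at 4.59 and 3.11 and the other lists at 6.91 to 9.25. On the left of chromosome 6, 58722 to 59237 at the tRNA gene TDEL0Ftrna3T and CBT1 had Orc1 at 2.49 and 2.78 and the other lists at 2.93 to 7.11. The region in all 6 lists nearest to an end beyond 60 kb, on chromosome 4 at 1154868 to 1156108 between ZIP2 and RMR1, had Orc1 at 7.46 and 8.19 and the other lists at 8.42 to 12.4. Apart from the 2 weak sites, the 21 regions had minimum folds of 6.03 or more. In the 23 regions the median fold was 8.38 and 8.98 in the Orc1 lists, against 7.42 and 8.20 in the 158 such regions of the interior. For the other lists it was 13.6 to 19.4 in the band and 12.9 to 18.05 in the interior. Rank agreement between Orc2 and Orc4 was lower in the band for each pair of lists, and so was that of Orc1 library 2 with the other subunits. Across the 23 regions Spearman's rho of fold was 0.57 to 0.78 for pairs with Orc1 and 0.86 to 0.93 between Orc2 and Orc4, against 0.66 to 0.78 and 0.94 to 0.97 in the interior. Summits of Orc1 lay a median of 48 to 82 bp from those of another subunit, and Orc2 and Orc4 summits 8 to 17 bp apart, against 39 to 60 bp and 15 to 18 bp in the interior.

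At these sites Orc1 peaks were wider than Orc2 and Orc4 peaks throughout the band. The median ratio of Orc1 width to that of the others was 1.54 over 5 regions at 20 to 40 kb, 1.28 over 8 at 40 to 60 kb, 1.47 over 6 at 60 to 80 kb and 1.46 over 4 at 80 to 100 kb. Over the 17 regions in the terminal 20 kb it was 2.95, over 18 regions at 100 to 150 kb 1.17, and over 140 regions farther in 1.05. Both Orc1 widths exceeded all 4 others at 14 of the 23 regions (60.9%), against 33.8% of all 198 regions in 6 lists and 24.7% of the 158 in the interior. The mean log2 width in the band minus that in the interior was 0.53 and 0.66 in the Orc1 lists, 0.09 and 0.19 in the Orc2 lists and 0.17 and 0.14 in the Orc4 lists. Both Orc1 values stood above the rest, by 0.45 on average or a ratio of 1.36 (exact permutation p = 0.0667, the smallest possible, and adjusted p = 0.1). Without the left end of chromosome 5 the difference was 0.39, and without Orc1 library 2 it was 0.43. Width grows with fold in these lists, and Orc1 fold in the band was 8.38 and 8.98 beside 7.42 and 8.20 in the interior. The part of this in the width was not tested.

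**Figure D4:**
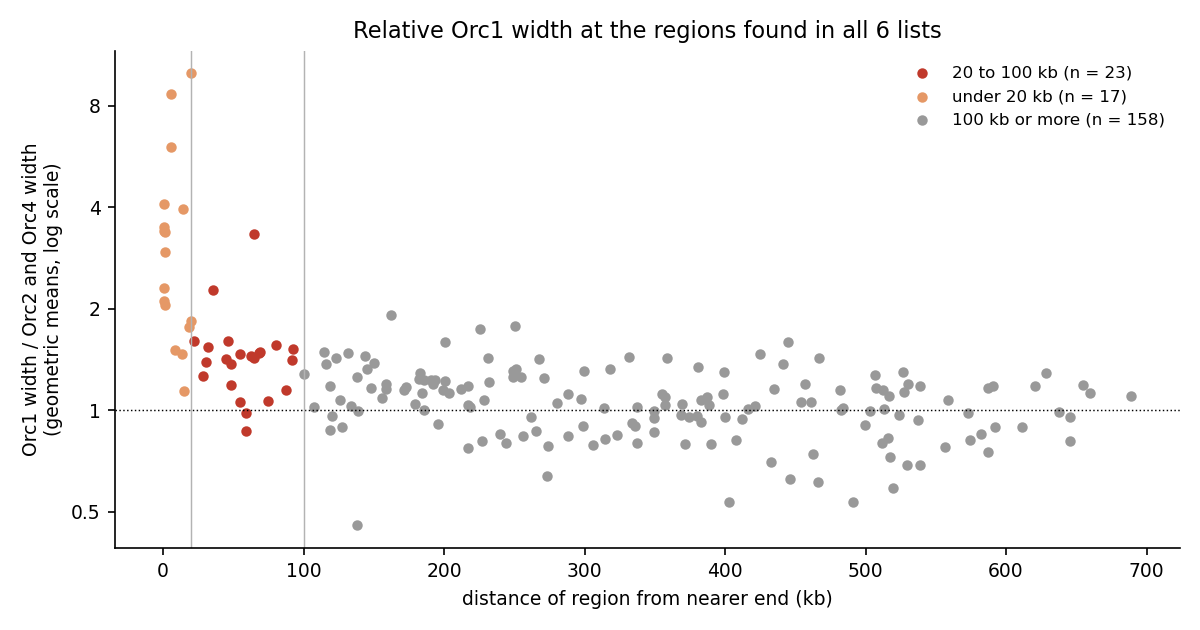
Ratio of Orc1 peak width to Orc2 and Orc4 peak width (geometric means over libraries, log scale) at each of the 198 regions found in all 6 lists, against distance from the nearer end. The 23 regions of the band have a median ratio of 1.43 and lie mostly above 1, between the terminal regions (median 2.95) and the interior (median 1.06).

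The widest region of the band was on the left arm of chromosome 5, at 47972 to 79521, over the genes TDEL0E00260 to TDEL0E00340 and into SIR1, which is named for a silencing gene. In Orc1 library 2 it was a single peak of 31.55 kb with fold 6.03. Orc1 library 1 had 6 separate peaks in it, the largest being 6.78 kb at 49806 to 56585 with fold 7.01 and 3.84 kb at 73151 to 76988 with fold 17.6. Library 1 had no peak between one ending at 58851 and one starting at 71891, a stretch that library 2 bridged. The other 4 lists had their strongest peaks under the 2 large peaks of library 1, with 4 to 9 peaks each. At 74.5 kb from the end, over the tRNA gene TDEL0Etrna12V, Orc2 had 31.0 and 30.4 and Orc4 had 33.4 and 23.6 in peaks of 1.09 to 1.28 kb. At 55.9 kb Orc2 had 17.5 and 20.999 and Orc4 had 21.4 and 14.7. At 53.5 kb Orc2 had 7.45 and 8.95 and Orc4 library 2 had 9.27, while Orc4 library 1 had 1 peak of 4.6 kb from 50454 to 55053 with fold 5.33.

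**Figure D5:**
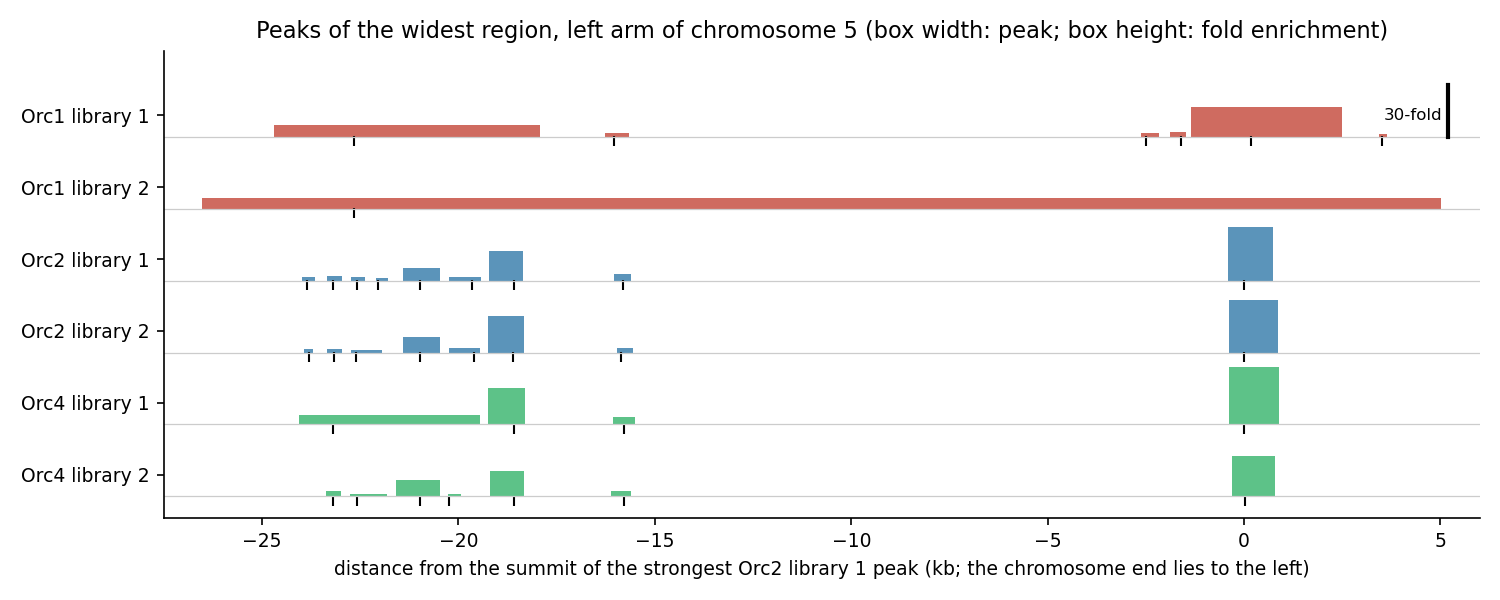
Peaks of the widest region in each library, drawn to scale by distance from the summit of the strongest Orc2 library 1 peak, with box height for fold enrichment (bar: 30-fold) and ticks for summits. Orc2 and Orc4 have strong narrow peaks at the right and in a cluster at the left, under the 2 large peaks of Orc1 library 1, and Orc1 library 2 has 1 peak over the whole stretch.

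Next in Orc1 width were places with little or no Orc2 and Orc4. On chromosome 4, 25.7 kb from the right end, 1192153 to 1197312 over the ferric reductase gene FRE4 and TDEL0D06610 had Orc1 fold of 12.8 and 10.6 in peaks of 4.90 kb (3 peaks) and 5.16 kb. No Orc2 or Orc4 peak overlapped it. On chromosome 7, 35.8 kb from the left end, 34324 to 39641 over the tRNA gene TDEL0Gtrna5V, TDEL0G00190 and TDEL0G00200 had Orc1 fold of 12.1 and 12.5 over 3.46 and 5.32 kb. Orc2 there gave 1.64 and 2.07 in peaks of 189 and 325 bp, Orc4 library 1 gave 2.997 in a peak of 629 bp, and Orc4 library 2 had none. In both places Orc1 fold lay within its range at the 10 strongest sites with all 3 subunits, 8.98 to 15.9.

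The surplus at the right end of chromosome 8 went with ribosomal DNA. All 11 annotated rRNA genes lie in the band, and 7 of them had a peak within 1000 bp, each in both Orc1 lists. At 791973 to 793865 over the rRNA gene Tdel_RDN5-1 Orc1 fold was 2.82 and 2.47, and at 800671 to 802595 over Tdel_RDN5-2 it was 2.995 and 2.42. Orc2 library 2 had 1.34 and 1.32 at these places and the other 3 lists had no peak. Genes for rRNA occur as repeats among which reads can be split, so these values are uncertain. Distances at this end are those along the reference sequence, and whether it holds every repeat was not tested. Without peaks beside rRNA genes the Orc1 difference in covered length over all ends was 28.5 kb, against 32.5 kb with them, and the surplus of this end was 3.95 kb.

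Besides FRE4, 3 regions were in both Orc1 lists alone, with folds under 4. They lay on chromosome 8 at 784579 to 785132 beside the rRNA gene Tdel_RDN25-1 (2.36 and 2.27), on chromosome 6 at 1002423 to 1003056 by the topoisomerase gene TOP3 (3.71 and 3.01), and on chromosome 7 at 77708 to 78044 in FKS3 (2.39 and 2.85). The 3 regions in all Orc2 and Orc4 lists without Orc1 lay on chromosome 3 at 92173 to 92477 in FRS1, a phenylalanyl-tRNA synthetase gene (2.28 to 4.19), on chromosome 8 at 772069 to 772409 beside the glutamate dehydrogenase gene GDH1 (2.44 to 3.56), and on chromosome 5 at 34068 to 34368 beside ADH6 (1.67 to 2.41). One region missed only Orc1 library 1: chromosome 5 at 1035895 to 1036553, with 2.74 in Orc1 library 2 and 3.46 to 6.39 in the others.

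A larger share of Orc1 members than of Orc2 and Orc4 members stood without another subunit. Of the Orc1 members, 12 of 41 (29.3%) and 15 of 43 (34.9%) overlapped no Orc2 or Orc4 peak. Peaks were counted singly. Of the 12 in library 1, 3 were pieces of 1 region, at FRE4, and some others lay in merged regions that also held Orc2 and Orc4 peaks. For Orc2, 3 of 50 (6.00%) and 2 of 46 (4.35%) overlapped no peak of another subunit, and for Orc4 12 of 53 (22.6%) and 0 of 38. The difference of 23.8 percentage points between Orc1 and the rest gave an exact permutation p of 0.0667 (adjusted p = 0.1). It was 16.4 points with peaks of -log10 q of 10 or more. Orc2 and Orc4 share a tag and a control and can overlap each other, which Orc1 has no partner for. In the interior the Orc1 shares were 8.70% and 6.67%, against 3.19% to 22.2% in the other lists, so that Orc1 there did not stand above them. In the terminal 20 kb the Orc1 shares were larger than in the band, 42.1% and 68.8%, against 0 to 3.57% in the other lists. Orc1 members without another subunit had a median fold of 2.37 and 2.27, against 8.27 and 8.65 for the rest of the Orc1 members.

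The 2 libraries of a subunit shared peaks in the band about as often as in the interior, apart from Orc1 library 2. Each of the 41 members of Orc1 library 1 had a counterpart in library 2, whereas 31 of 43 (72.1%) did so in the other direction, against 96.1% in the interior. In the terminal 20 kb the share of Orc1 library 2 peaks with a counterpart was lower still, 29.9%. For Orc2 84.0% and 89.1% of members were in the other list, and for Orc4 60.4% and 97.4%. Of the regions, 11 were in Orc1 library 2 and not in library 1, and 0 in library 1 alone.

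The share of members between genes was close to that of interior peaks, and the share beside tRNA genes was smaller in all 6 lists. Summits fell outside annotated genes for 69.8% to 81.6% of members of a list, against 67.8% to 83.0% in the interior. Of the 23 regions in all 6 lists, 20 had their mean summit between genes (87.0%, against 89.2% in the interior). A tRNA gene lay within 1000 bp of 7.89% to 11.6% of members, against 24.9% to 27.1% of interior peaks, and the ranges of the 6 lists did not overlap. The band holds 11 tRNA genes, or 0.859 per 100 kb, against 2.296 per 100 kb in the interior. Of these genes, 8 of 11 in the band (72.7%) and 100 of 175 in the interior (57.1%) had a peak of at least 1 list within 1000 bp, and 3 of 11 and 55 of 175 had all 6. Those with all 6 were TDEL0Etrna12V, TDEL0Ftrna3T and TDEL0Ftrna3I.

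Few genes of origin or silencing factors lie in the band. Of 6 ORC genes 1, ORC4, is there, 93.4 kb from the left end of chromosome 8, and a region of all 6 lists at 92027 to 92958 lay between it and the translation factor gene TIF3, where Orc1 was at 7.17 and 6.67 and the other lists at 6.91 to 14.0. Of 14 genes of silencing and general regulatory factors, SIR1 was the one in the band, and only the wide peak of Orc1 library 2 reached it. Of 22 genes of origin licensing and replication, PSF3 was in the band and had no peak within 1000 bp. No histone or mating-type gene lies between 20 and 100 kb. A list meant for transporter, metal reductase and sugar genes, picked by the start of the symbol, had 12 of 26 in the band. In the band lie 653 of all 5174 genes. Through their symbols the list also took in DAL81 and DAL82, which encode transcription regulators. Only FRE4, with both Orc1 lists, and the amino acid permease gene AGP1, with 2.29 in Orc4 library 1, had a peak within 1000 bp (16.7%, against 20.8% of all 653 genes of the band). The remaining 10, among them HXT11, PHO84, FET3 and ZRT1, which act in hexose, phosphate, iron and zinc uptake, had none.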

How the data were processed

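Peak lists of 6 immunoprecipitates were used. The submitters' processing notes name MACS2 2.2.7.1, Bowtie2 2.3.4.1 and cutadapt 2.10. Settings and build: not given in the sources used here. Peaks were called per library, per the file's peak names. The authors deposited for each peak its position, a fold enrichment (a ratio to the control) and −log10 p and −log10 q values. Positions are 1-based. The 8 sequences were taken as the chromosomes of the same number in the RefSeq gene table of assembly ASM24337v1: the share of summits between genes was highest for the same number in 8 of 8 (65.5% to 76.3%), and at most 36.05% for another chromosome in the 7 that could be compared.

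Peaks overlapping by 1 bp were merged. A region's distance is that of its mean summit, its fold is taken from the peak of largest −log10 q, and its width is the sum of its peaks. The interior is 100 kb or more from an end. Tests were exact permutations over libraries (Python 3.11.15, numpy 2.4.6, pandas 2.3.3), with Benjamini-Hochberg adjustment, and were checked on simulated lists. Alternatives changed the peak threshold and number, summit or centre, right end, band limits, overlap, libraries and the left end of chromosome 5. The members and gene lists were chosen with earlier results of these data known. Named regions were the 10 strongest in all 6 lists, the 5 with most Orc1 width, those of Orc1 or Orc2 and Orc4 alone, the nearest to an end in each step, and those beside listed genes.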

Additional observations from a re-analysis of the deposited data

How the results depend on the processing

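Of 201 recomputed values, 5 changed direction and 3 passed 0.05. Comparisons of Orc1 with the others cannot reach 0.05 with 6 libraries, so their p-values say nothing about stability. The Orc1 difference in median width of band over interior, 0.08, was 0.37 with -log10 q of 10 or more and 0.30 with equal numbers of peaks. With -log10 q of 10 or more, equal numbers of peaks per list, or a band of 20 to 80 kb, the log2 excess of peak density over the interior was 0.15, 0.21 and 0.48 (exact sign-flip permutation p = 0.0312 in each, the smallest 6 libraries allow, against 0.0938). Without the left end of chromosome 5 it was -0.0026. Peak centres turned the near-against-far difference to -0.54. The fold enrichment of band over interior was -0.19 with 20 to 80 kb, and its Orc1 difference, -0.29, became 0.18 at -log10 q of 10 or more and 0.083 with equal numbers of peaks. The cause was not tested, apart from the end and the centre described above. Leaving out 1 library gave 19.95 to 45 kb for covered length, 0.11 to 1.42 for near against far, 0.86 to 1.37 for covered density, 0.43 to 0.61 for width at shared regions and 19.9 to 26.6 points for members alone. Taking the last gene or peak as the right end changed no value. Taking whole regions and leaving out peaks beside rRNA genes were added after seeing the data. With the replicate number as a block the covered-length difference of 32.5 kb had an exact permutation p of 0.111, the smallest 9 arrangements allow. Across 198 regions the deviations of same-numbered libraries had r of 0.06 (Orc1 with Orc2), -0.15 (Orc1 with Orc4) and 0.19 (Orc2 with Orc4). These values were not tested, and the main tests did not take the numbers as pairs.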
